A study of Mus musculus with 10 samples.

Results

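The nuclear genes of respiratory complexes II to V were described in hippocampus of Dp1Rhr mice and their controls. The members were the genes whose symbol begins with Sdha, Sdhb, Sdhc or Sdhd, with Uqcr, with Cox4 to Cox8 or with Atp5, together with Cyc1 and Cycs, each measured by its brightest probe set among those annotated with a single symbol. This gave 52 of 19938 genes tested: 4 subunits and 4 assembly factors of complex II, 10 genes of complex III including cytochrome c, 9 common subunits, 7 tissue isoforms and the supercomplex factor Cox7a2l of complex IV, and 17 subunits of complex V. The rule used symbols and no expression difference between the groups. Cox7c was not among them because its probe sets were annotated jointly with Gm12338.

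Dp1Rhr mice carry a tandem duplication of the chromosome 16 segment from Cbr1 to Fam3b, homologous to part of human chromosome 21, so that its genes are present in 3 copies in place of 2. Gene expression was measured in 10 males aged 16 weeks, 5 Dp1Rhr and 5 control, each as 1 array of RNA from both hippocampi. The labels give the background of both groups as C57BL/6N, and the controls are labelled as wild type animals of the Dp1Rhr and Dp5Yah colony, so no allele other than the duplication distinguished the groups by label. The duplication is present in every cell of the animal, and the arrays read whole hippocampus, in which fewer cells of a type and less RNA per cell cannot be told apart.

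The respiratory chain of the inner mitochondrial membrane passes electrons from complexes I and II through ubiquinone, complex III and cytochrome c to complex IV, where oxygen is reduced. Complexes I, III and IV pump protons, and complex V, the ATP synthase, lets them flow back to make ATP, on which synaptic transmission and ion pumping in neurons rely. Complex II also belongs to the tricarboxylic acid cycle and is built only from nuclear genes, while complexes III, IV and V combine nuclear subunits with subunits made from mitochondrial DNA.

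The 31 tested genes that lie within the duplicated segment had a median log2 fold change of 0.21 (Dp1Rhr minus control throughout), and their mean log2 signal was 8.09 to 8.10 in the controls and 8.29 to 8.33 in Dp1Rhr. The lowest correlation between any pair of arrays was 0.995. Markers of hippocampal neurons were measured for 14 of 14 genes, with a mean log2 signal of 10.45 to 10.52 in the controls and 10.47 to 10.5 in Dp1Rhr. Their median log2 fold change was -0.04, with 5 of 14 above 0. Tdo2, a marker of dentate granule cells, rose by 0.25 (limma, adjusted p = 0.021). Lct, the lowest of the 14, had -0.17 (adjusted p = 0.227) and Prox1 had 0.05 (adjusted p = 0.824). Control replicates 2 and 3 stood apart in markers of the choroid plexus, the secretory epithelium of the ventricles: the mean log2 signal of 22 measured markers was 7.03 and 7.22 there, 8.17 to 8.77 in the other controls and 8.36 to 9.12 in Dp1Rhr. Values without these arrays are given beside Sdhc, Uqcrc1, Cox4i1, Cox8b and Atp5md. Nothing in the labels says whether the animals of a group, given as biological replicates, came from separate litters, so the p-values measure the spread between these animals.

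Differences between Dp1Rhr and control were small across complexes II to V. Of 52 members, 1 rose and 0 fell at an adjusted p of 0.05 (limma, adjusted over all 19938 genes), against 0.802% of all genes tested in either direction and 0.627% that rose. The gene that rose was Sdhc, a membrane anchor of complex II. At an unadjusted p of 0.05, 9 of 52 members passed (17.3%), against 15.0% of all genes, and all 9 were higher in Dp1Rhr, a direction in which 8.55% of all genes passed. The groups did not overlap for 1 member, Sdhc, against 3.52% of all genes in either direction and 1.82% in this direction.

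The direction was more uniform than the calls. The log2 fold change was above 0 for 43 of 52 members (82.7%), against 49.9% of all genes tested. The median was 0.04 over the members and 0.00 over all genes. Among genes at or above the 90th percentile of mean signal, where 31 members lie, the median was 0.04 over those members and -0.01 over all 1994 genes, of which 45.3% were above 0. These are descriptions of lists of unequal size whose members are measured on the same arrays, and no test was made of them. The precision sets a limit on what could have been missed: for 44 of 52 members the whole 95% confidence interval lay within 0.2 of 0 on the log2 scale, a 1.15-fold difference, and the median half-width of the intervals was 0.09.

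**Figure D1:**
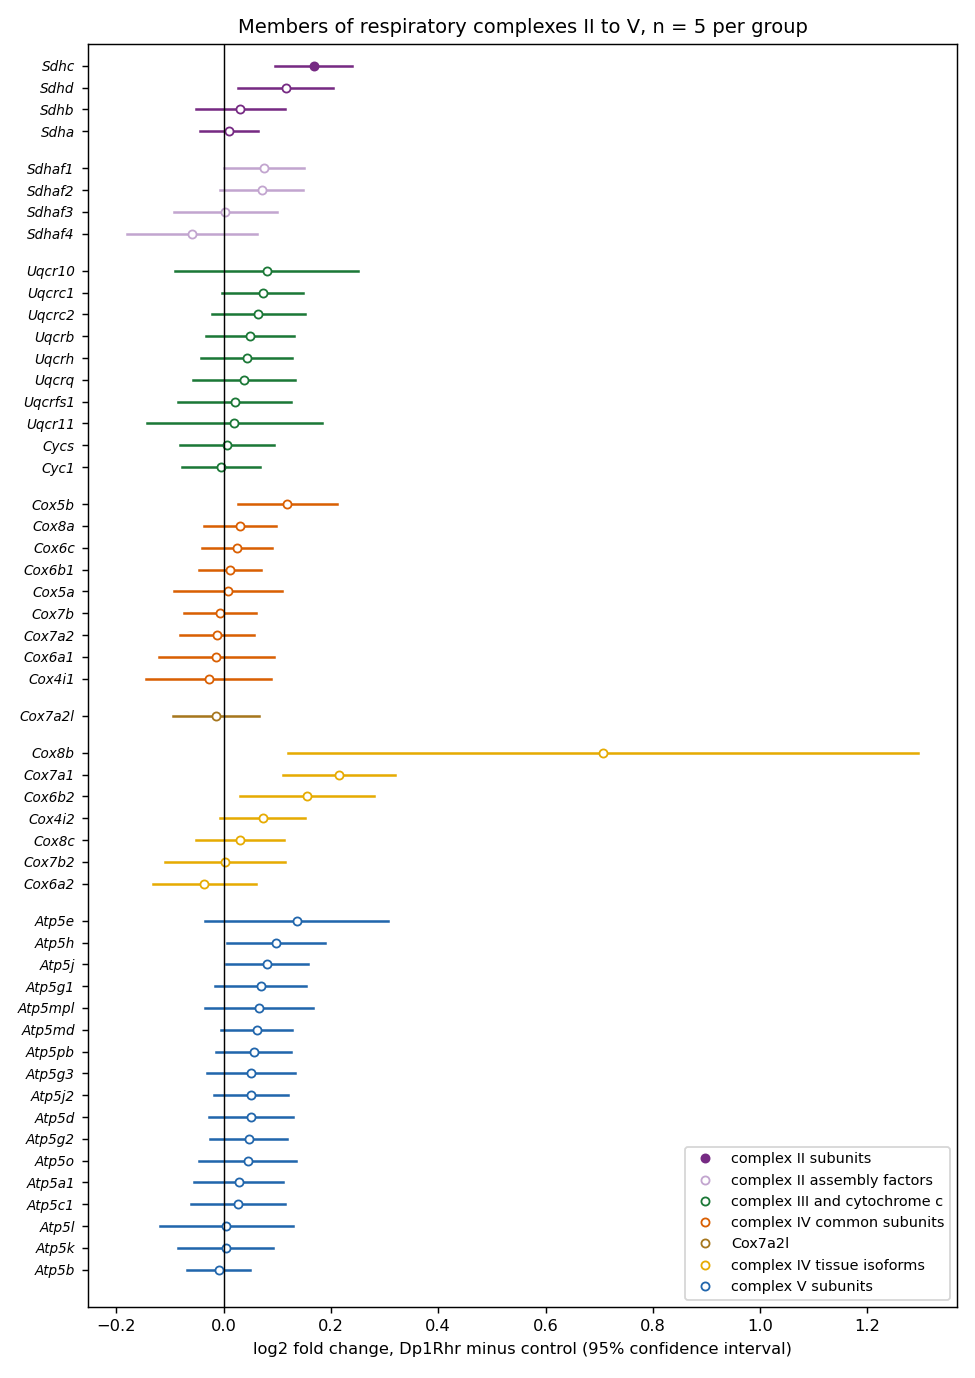
Log2 fold change (x axis, Dp1Rhr minus control) of each of the 52 members (y axis), grouped by complex, with its 95% confidence interval from limma (n = 5 per group). The filled point is Sdhc, the member that passed the adjusted threshold, and Cox8b at 0.71 has the widest interval.

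The complexes did not show the same median. It was 0.07 for the 4 subunits of complex II, 0.04 for the 10 genes of complex III with cytochrome c, 0.01 for the 9 common subunits of complex IV and 0.05 for the 17 subunits of complex V. The number above 0 was 4 of 4, 9 of 10, 5 of 9 and 16 of 17 in the same order. With the choroid plexus score as a covariate the medians were 0.06, 0.03, -0.01 and 0.03, and with arrays centred on their medians 0.05, 0.02, -0.02 and 0.03. For the common subunits of complex IV the median was also below 0, at -0.0026 and -0.0057, without Dp1Rhr replicate 1 or 2. Whether the complexes differed from each other was not tested.

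To see which animals carried the shift, the deviation of each gene from its mean over the 10 arrays was taken and the median over the members was found for each array. It ran from -0.04 to 0.00 in the controls and from -0.02 to 0.05 in Dp1Rhr, and 4 of 5 Dp1Rhr arrays lay above the highest control. The exception was Dp1Rhr replicate 3, which was the lowest of its group for 24 of 52 members, while Dp1Rhr replicate 1 was the highest of its group for 26 of 52. For complex II all 5 Dp1Rhr arrays lay above the highest control, for complex V 4 of 5, for complex III 2 of 5 and for the common subunits of complex IV 0 of 5. The complex II value is a median over 4 genes that differed. Above the highest control of each gene lay 5 Dp1Rhr arrays for Sdhc, 4 for Sdhd, 2 for Sdha and 0 for Sdhb. Without Dp1Rhr replicate 3 the median fold change of complex V was 0.06 and that of the common subunits of complex IV 0.01.

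**Figure D2:**
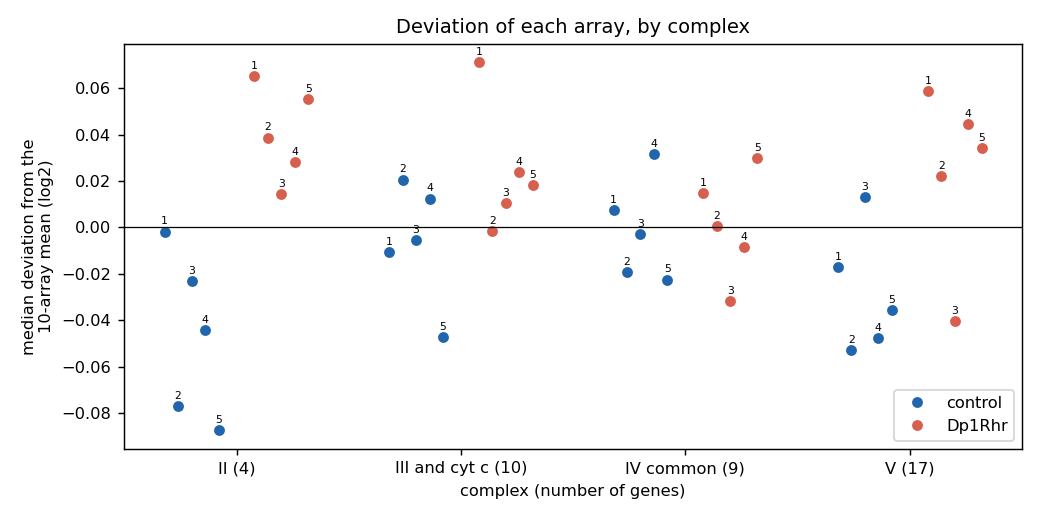
Median deviation of the genes of each complex from their 10-array means (y axis, log2), for each control and Dp1Rhr array (points, numbered by replicate), by complex (x axis, with the number of genes). All 5 Dp1Rhr points lie above the controls for complex II, and Dp1Rhr replicate 3 lies among the controls for complex V.

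Complex II oxidises succinate and hands the electrons to ubiquinone. Sdhc (chromosome 1, 171129157 to 171150640, GRCm38), one of the pair of membrane anchors that form the ubiquinone site with Sdhb, had log2 signals of 10.57, 10.47, 10.58, 10.47 and 10.52 in control replicates 1 to 5 and 10.74, 10.67, 10.69, 10.64 and 10.70 in Dp1Rhr replicates 1 to 5. Every Dp1Rhr array was above every control. The log2 fold change was 0.17 ± 0.03 (SE), or 1.12-fold, with an adjusted p of 0.0471. The call was not firm, with the adjusted p above 0.05 in 14 of 19 alternative settings (0.0352 to 0.191), among them each fit with 1 array left out, the fit without control replicates 2 and 3 (0.129) and the fit with the choroid plexus score as a covariate (0.191). The size moved less: the log2 fold change was 0.17 without control replicates 2 and 3, 0.15 ± 0.04 (SE) with the covariate, and 0.15 to 0.18 with 1 array left out.

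Sdhd (chromosome 9, 50596340 to 50603849), the other membrane anchor, had 9.79, 9.63, 9.85, 9.76 and 9.72 in the controls and 9.89, 9.87, 9.80, 9.88 and 9.89 in Dp1Rhr. Control replicate 3 lay above Dp1Rhr replicate 3, and the other 4 Dp1Rhr arrays lay above every control. The log2 fold change was 0.12 ± 0.04 (SE) and did not pass (adjusted p = 0.196). The catalytic subunits lay closer to 0: Sdhb, the iron-sulphur protein, had 0.03 ± 0.04 (SE) and Sdha, the flavoprotein that oxidises succinate, 0.01 ± 0.02 (SE).

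The assembly factors of complex II, taken in by the shared symbol stem, had a median of 0.04. Sdhaf1, which helps insert iron-sulphur clusters into Sdhb, had 0.08 ± 0.03 (SE, adjusted p = 0.330), and Sdhaf2, which attaches the flavin to Sdha, had 0.07 ± 0.04 (SE, adjusted p = 0.381). Sdhaf3 had 0.00, and Sdhaf4, a chaperone of Sdha, had -0.06 ± 0.06 (SE), the lowest of the 52 members.

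Complex III moves electrons from ubiquinol to cytochrome c, and none of its genes passed at the adjusted threshold or at an unadjusted p of 0.05. Uqcrc1, a core protein, had log2 signals of 11.16, 11.29, 11.25, 11.17 and 11.21 in the controls and 11.34, 11.25, 11.25, 11.30 and 11.31 in Dp1Rhr. Control replicates 2 and 3 lay within the range of Dp1Rhr, and the log2 fold change was 0.07 ± 0.03 (SE, adjusted p = 0.352). Without them it was 0.11 ± 0.04 (SE, adjusted p = 0.228), and 0.12 ± 0.04 (SE, adjusted p = 0.272) with the choroid plexus score as a covariate. Uqcrc2, the other core protein, had 11.98, 11.94, 12.04, 11.90 and 11.96 in the controls and 12.11, 12.05, 11.91, 12.05 and 12.01 in Dp1Rhr. Here Dp1Rhr replicate 3 lay among the lowest controls, and the log2 fold change was 0.06 ± 0.04 (SE, adjusted p = 0.504).

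Uqcrb, which takes part in binding ubiquinone, had 0.05 ± 0.04 (SE) and Uqcrh, the hinge protein, 0.04 ± 0.04 (SE). The carriers at the far end of the complex were nearest to 0. Cyc1, cytochrome c1, had -0.01 ± 0.03 (SE), and Cycs, the soluble cytochrome c that also acts in apoptosis, had 0.01 ± 0.04 (SE). The other members, Uqcr10, Uqcr11, Uqcrq and the Rieske protein Uqcrfs1, ranged from 0.02 to 0.08.

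Complex IV, cytochrome c oxidase, had the common subunits with the least shift. Its 9 genes ranged from -0.03 to 0.12, and Cox5b stood apart from the rest, the next highest being Cox8a at 0.03 ± 0.03 (SE). Cox5b (chromosome 1, 36691487 to 36693388), a zinc-binding subunit that faces the matrix, had 11.96, 11.88, 12.02, 11.95 and 11.99 in the controls and 12.12, 12.07, 11.95, 12.16 and 12.08 in Dp1Rhr. Dp1Rhr replicate 3 lay among the controls and the other 4 arrays lay above them. Its log2 fold change was 0.12 ± 0.04 (SE, adjusted p = 0.202), and a second probe set of the gene gave 0.11.

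Of the other common subunits, Cox6c had 0.02 ± 0.03 (SE), Cox6b1 0.01 ± 0.03, Cox5a 0.01 ± 0.05, Cox7b -0.01 ± 0.03, Cox7a2 -0.01 ± 0.03 and Cox6a1 -0.01 ± 0.05. Cox4i1, the common form of the regulatory subunit 4, had -0.03 ± 0.05 (SE). Without control replicates 2 and 3 it had -0.10 (adjusted p = 0.290), and once the choroid plexus score entered the fit it had -0.15 (adjusted p = 0.181). Cox7a2l, which joins complexes III and IV into supercomplexes, had -0.01 ± 0.04 (SE). Its 2 probe sets differed in sign, at -0.01 and 0.02, the widest spread between probe sets of any member.

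Complex IV also has isoforms that replace a common subunit in particular tissues: Cox6a2, Cox7a1 and Cox8b in heart and skeletal muscle, Cox4i2 in lung and in pericytes, and Cox6b2, Cox7b2 and Cox8c in testis. The 7 isoforms had a median of 0.07. By limma 0 of 7 passed at the adjusted threshold and 3 (42.9%) at an unadjusted p of 0.05, which 15.0% of all genes passed. Cox7a1 (chromosome 7, 30184171 to 30186030) had 7.52, 7.39, 7.34, 7.35 and 7.44 in the controls and 7.71, 7.59, 7.64, 7.49 and 7.68 in Dp1Rhr. Dp1Rhr replicate 4 was below control replicate 1 and the other 4 arrays were above all controls. The log2 fold change was 0.21 ± 0.05 (SE, adjusted p = 0.0657), the second smallest p among the members, and it was 0.15 ± 0.05 (SE, adjusted p = 0.293) with the choroid plexus score as a covariate. Its counterpart Cox7a2 had -0.01.

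Cox8b (chromosome 7, 140898942 to 140900446), also known as a gene of brown fat, had the highest fold change of the 52 members and the widest spread. Its log2 signals were 7.63, 6.40, 6.44, 7.39 and 7.21 in control replicates 1 to 5 and 7.77, 7.94, 7.44, 7.13 and 8.33 in Dp1Rhr replicates 1 to 5. Control replicates 2 and 3 lay apart at the bottom, and 3 of 5 Dp1Rhr arrays lay above the highest control. The groups differed by 0.71 ± 0.27 (SE), on the log2 scale, or 1.63-fold, and the gene did not pass (adjusted p = 0.233).

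The order of the arrays for Cox8b followed that of the choroid plexus markers closely. The choroid plexus score, the mean of the marker z-scores, was 0.564, -1.73, -1.47, 0.256 and -0.403 in control replicates 1 to 5 and 0.810, 0.807, 0.135, -0.0651 and 1.09 in Dp1Rhr replicates 1 to 5. All 22 measured markers had a log2 fold change above 0, from 0.21 to 2.32 with a median of 0.72. By limma 0 of them passed at the adjusted threshold and 16 (72.7%) at an unadjusted p of 0.05, which 15.0% of all genes passed. With the score as a covariate the log2 fold change of Cox8b was 0.02 ± 0.11 (SE, adjusted p = 0.967), and without control replicates 2 and 3 it was 0.31 (adjusted p = 0.615). Its counterpart Cox8a, at 12.39 ± 0.05 (SD, n = 5) in the controls and 12.42 ± 0.03 (SD, n = 5) in Dp1Rhr, had 0.03 ± 0.03 (SE), and 0.06 ± 0.04 (SE) with the score in the fit.

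**Figure D3:**
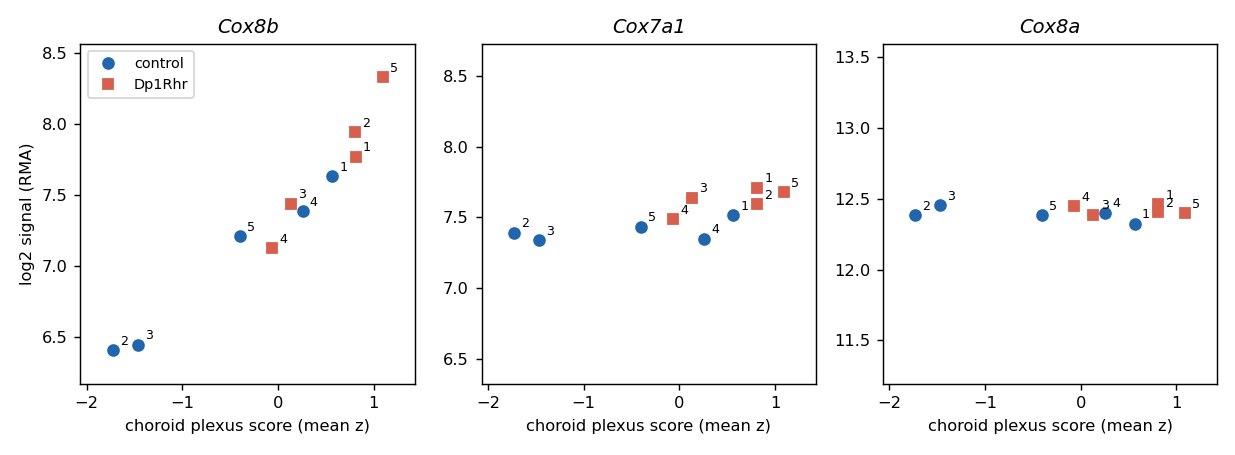
Log2 signal (y axis, the same span of 2.4 in each panel) of Cox8b, Cox7a1 and the common subunit Cox8a against the choroid plexus score (x axis, mean z-score of 22 markers) in the 5 control and 5 Dp1Rhr arrays, numbered by replicate. Cox8b runs from 6.40 to 8.33 along the score, while Cox8a stays near 12.4.

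Cox6b2 followed at 0.16 ± 0.06 (SE, adjusted p = 0.216). Its lowest array was control replicate 2 at 6.07, the other controls lay from 6.23 to 6.34 and Dp1Rhr from 6.28 to 6.52, and with the choroid plexus score as a covariate the value was 0.05 ± 0.06 (SE, adjusted p = 0.774). Cox4i2 had 0.07 ± 0.04 (SE, adjusted p = 0.383), beside mural cell markers of which 5 of 11 were above 0 with a median of -0.01. Cox6a2, which in brain is known from parvalbumin interneurons, had -0.04 ± 0.04 (SE), beside 9 measured markers of those cells, with a median of 0.00 and values from -0.19 for Syt2 to 0.43 for Tac1. By limma 0 of the 9 passed at the adjusted threshold and 6 (66.7%) at an unadjusted p of 0.05, which 15.0% of all genes passed. Of the 6, 3 were higher and 3 lower, and Pvalb itself had 0.00 ± 0.06 (SE). Cox8c had 0.03 ± 0.04 (SE) and Cox7b2 0.00 ± 0.05 (SE). The testis isoforms Cox6b2, Cox8c and Cox7b2 were dim, at percentiles 32.7, 33.7 and 9.14 of mean signal. The part of choroid plexus, mural cells and parvalbumin interneurons in the isoform values was not tested. The choroid plexus score was higher in Dp1Rhr than in control, with overlap, so the covariate fits cannot fully separate it from the genotype.

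**Figure D4:**
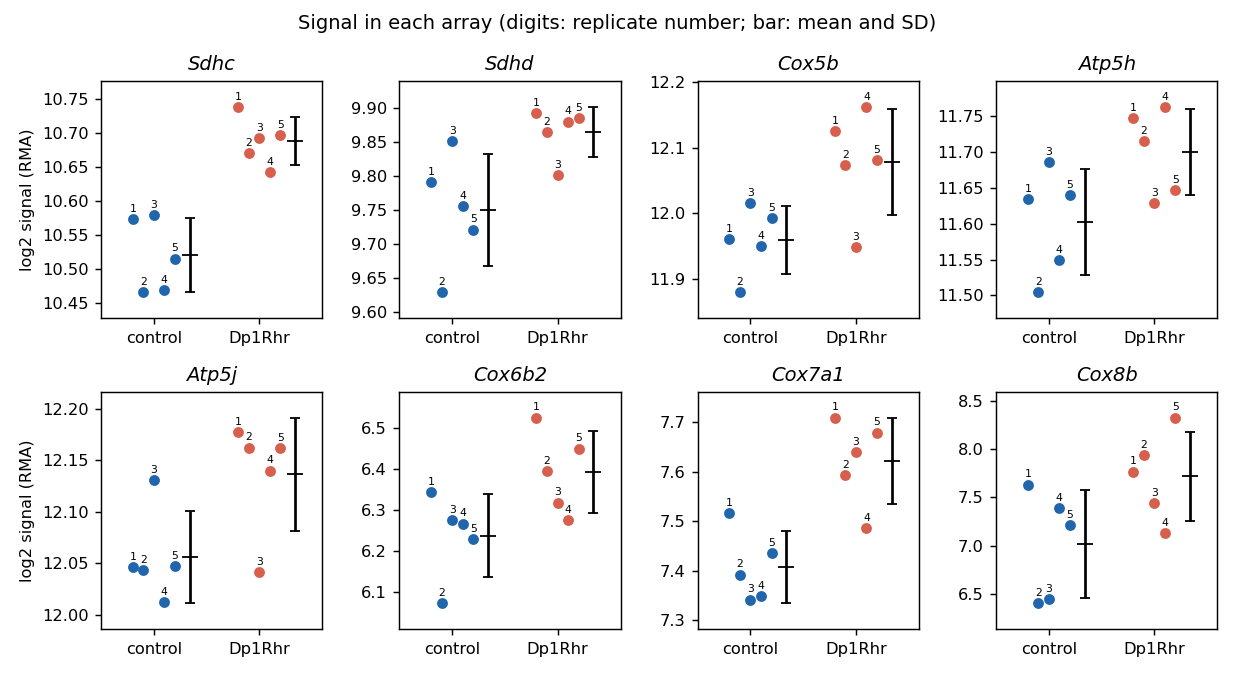
Log2 signal (y axis, scaled separately for each gene) of 8 members in the 5 control and 5 Dp1Rhr arrays, numbered by replicate, with the mean and SD of each group. Only for Sdhc among these 8 do the groups not overlap, control replicates 2 and 3 are the low points of Cox8b, and Dp1Rhr replicate 3 lies among the controls for Cox5b and Atp5j.

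Complex V has a ring of membrane subunits that turns a central stalk inside a catalytic head, which a side stalk holds in place. Of its 17 genes, none of which passed, the stalk subunits Atp5j and Atp5h had the smallest p-values. Atp5md of the membrane part and Atp5g1 of the ring came next, ahead of the stalk subunits Atp5pb and Atp5o. Atp5h (chromosome 11, 115415691 to 115419919), the stalk subunit d, had 11.63, 11.50, 11.69, 11.55 and 11.64 in the controls and 11.75, 11.72, 11.63, 11.76 and 11.65 in Dp1Rhr. Dp1Rhr replicates 3 and 5 lay among the controls, and the log2 fold change was 0.10 ± 0.04 (SE, adjusted p = 0.296). Atp5pb, the stalk subunit b, had 0.06 ± 0.03 (SE, adjusted p = 0.463).

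In the rotor and membrane part, Atp5g1, Atp5g2 and Atp5g3, which encode the same mature ring subunit, had 0.07 ± 0.04, 0.05 ± 0.03 and 0.05 ± 0.04 (SE). Atp5md, a small membrane subunit needed for stability of the enzyme, had 0.06 ± 0.03 (SE, adjusted p = 0.373), and 0.10 ± 0.03 (SE, adjusted p = 0.227) without control replicates 2 and 3. Atp5mpl and Atp5j2 had 0.07 and 0.05, while the dimer subunits Atp5k and Atp5l had 0.00 each. In the head, Atp5b, the catalytic beta subunit, had -0.01 ± 0.03 (SE), the one subunit of complex V below 0, and Atp5a1, the alpha subunit, had 0.03 ± 0.04 (SE). Atp5c1 and Atp5d of the central stalk had 0.03 and 0.05, and Atp5e had 0.14 ± 0.08 (SE, adjusted p = 0.464), with a wider spread in Dp1Rhr (SD 0.185) than in control (SD 0.0827).

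The members lie on 19 chromosomes, and 2 of them, both of the stalk of complex V, lie on chromosome 16, which carries the duplication. Neither is inside it. Atp5j, coupling factor of the stalk, at 84827871 to 84835857, ends 8.77 Mb before the segment, which runs from 93607837 to 97504936. Atp5o, the subunit that confers sensitivity to oligomycin, at 91925223 to 91931630, ends 1.68 Mb before it.

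Atp5j had log2 signals of 12.05, 12.04, 12.13, 12.01 and 12.05 in the controls and 12.18, 12.16, 12.04, 12.14 and 12.16 in Dp1Rhr, so that Dp1Rhr replicate 3 lay among the controls and the other 4 arrays above them. The log2 fold change was 0.08 ± 0.03 (SE, adjusted p = 0.296), with a 95% confidence interval of 0.01 to 0.16. Atp5o had 10.78, 10.64, 10.84, 10.75 and 10.75 in the controls and 10.86, 10.85, 10.72, 10.78 and 10.77 in Dp1Rhr, and the groups overlapped for all but 2 Dp1Rhr arrays. Its log2 fold change was 0.04 ± 0.04 (SE, adjusted p = 0.692), with an interval of -0.05 to 0.13. Both intervals end below 0.58, the log2 of 3 copies over 2, and the interval of neither contains the median of 0.21 of the duplicated genes.

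Atp5j lies head to head with Gabpa, which encodes the DNA-binding subunit of an ETS factor known to regulate nuclear respiratory genes. The promoter windows of the pair (250 bases before to 50 after the start) shared 247 bases. Of its 2 RefSeq windows, the one next to Gabpa is shown because it holds matches to the motifs of both factors classically tied to these genes, the NRF1 motif CGCATGCG and the ETS motif CCGGAAG, in capitals (RefSeq, GRCm38.p6, chr16:84834927-84835226, minus strand).
Atp5j: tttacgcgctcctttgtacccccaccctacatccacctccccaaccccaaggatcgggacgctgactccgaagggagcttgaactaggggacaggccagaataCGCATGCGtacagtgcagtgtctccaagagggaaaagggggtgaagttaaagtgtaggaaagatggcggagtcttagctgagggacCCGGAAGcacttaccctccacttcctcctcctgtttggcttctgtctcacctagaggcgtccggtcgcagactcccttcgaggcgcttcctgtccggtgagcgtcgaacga

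For Gabpa itself the value was 0.06 ± 0.06 (SE, adjusted p = 0.723) and for Nrf1, which encodes the other factor, 0.01 ± 0.04 (SE, adjusted p = 0.934). A RefSeq window was at hand for 40 of 52 members and 15614 of the tested genes, and a gene with several windows was counted once if any held the motif. The ETS motif, CCGGAAG on one strand or CTTCCGG on the other, was in 16 of 40 member windows (40%) against 13.6% of all tested genes with a window. The NRF1 motif, which reads the same on both strands, was in 8 of 40 (20%) against 3.00%. The letters TATAAA, or TTTATA on the other strand, were in 12.5% of member windows against 13.6%, and the E-box CAGCTG, the same on both strands, in 5.00% against 18.4%. The motifs were chosen with these windows known, and a match is a run of letters and no measured binding.

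The members were then split by motif, with no test. The median log2 fold change was 0.04 over the 16 members with the ETS motif and 0.05 over the 24 without, and 0.01 over the 8 with the NRF1 motif and 0.05 over the 32 without. Sdhd, Atp5h and Atp5j, among the members with the smallest p-values, hold the ETS motif, and so do Cox6b1, Atp5k and Atp5l, whose fold changes were 0.01, 0.00 and 0.00. Sdhc, the member that passed the adjusted threshold, had no RefSeq window and was in neither split.

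The windows of the common and muscle isoforms of subunit 8 differed in their matches. Those of another such pair, Cox7a2 and Cox7a1, held 0 matches each to the motifs searched. Cox8a (chr19:7217567-7217866, minus strand) holds 2 matches to the ETS motif, and Cox8b (chr7:140900397-140900696, minus strand) holds none, but 2 E-boxes around a TATAAA, all in capitals.
Cox8a: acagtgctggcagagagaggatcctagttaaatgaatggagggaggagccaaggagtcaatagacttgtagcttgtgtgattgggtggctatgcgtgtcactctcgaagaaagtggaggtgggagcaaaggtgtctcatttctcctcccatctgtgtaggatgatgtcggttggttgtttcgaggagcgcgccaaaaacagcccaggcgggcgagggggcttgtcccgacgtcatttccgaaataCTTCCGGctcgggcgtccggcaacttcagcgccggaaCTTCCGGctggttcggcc
Cox8b: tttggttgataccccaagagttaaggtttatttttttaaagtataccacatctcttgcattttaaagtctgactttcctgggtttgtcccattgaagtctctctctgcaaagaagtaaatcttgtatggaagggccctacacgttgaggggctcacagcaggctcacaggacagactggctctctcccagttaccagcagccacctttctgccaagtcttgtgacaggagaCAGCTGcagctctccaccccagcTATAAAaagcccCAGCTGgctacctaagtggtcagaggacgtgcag

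**Figure D5:**
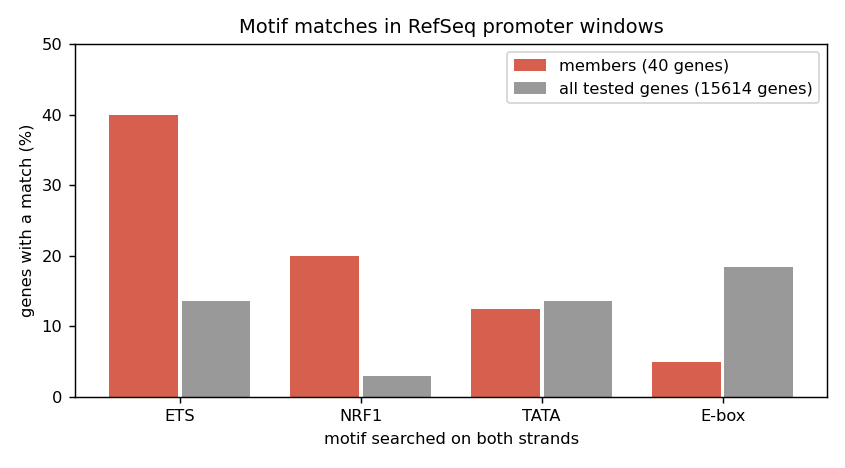
Share of RefSeq promoter windows of 300 bases with at least 1 match (y axis, percent) for 4 motifs searched on both strands (x axis), in the 40 members and the 15614 tested genes that have a window. The ETS and NRF1 bars of the members, 40% and 20%, exceed those of all genes, 13.6% and 3.00%, and the E-box bar is lower.

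Other genes of the pathway had differences of like size. By limma 0 of the 34 measured subunits of complex I passed at the adjusted threshold and 5 (14.7%) at an unadjusted p of 0.05, which 15.0% of all genes passed. Their median was 0.06, with 29 of 34 above 0, and Ndufc2 and Ndufa1, both accessory subunits, had the smallest p at 0.11 ± 0.03 and 0.17 ± 0.05 (SE). Enzymes of the tricarboxylic acid cycle had a median of 0.04 with 15 of 16 above 0, but 0 passed at either threshold, with Idh3g at 0.08 and Suclg1 at 0.07.

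Assembly factors of complex IV had a median of 0.05, with 21 of 23 above 0. By limma 0 passed the adjusted threshold and 4 (17.4%) an unadjusted p of 0.05, which 15.0% of all genes passed. Cox20, a chaperone of the mitochondrially encoded subunit 2, had 0.21 ± 0.05 (SE, adjusted p = 0.0678) and Higd1a, which binds complex IV in hypoxia, had 0.17 ± 0.05 (SE, adjusted p = 0.116). For complex III the median over 7 factors was 0.04, 0 passed the adjusted threshold and 2 (28.6%) an unadjusted p of 0.05. Of these, Bcs1l, which inserts the Rieske protein, had 0.18 ± 0.05 (SE, adjusted p = 0.129) and Lyrm7, its partner, 0.10 ± 0.04 (SE, adjusted p = 0.291). For complex V the median over 8 factors was 0.05 and 0 passed at either threshold, with the inhibitor Atpif1 at 0.07 and the assembly factor Atpaf1 at -0.06. A list of 8 genes around ATP export, made up of the phosphate carrier Slc25a3, the ADP/ATP exchangers Slc25a4, Slc25a5 and Slc25a31, the outer membrane channels Vdac1, Vdac2 and Vdac3 and the creatine kinase Ckmt1, had a median of 0.03, and 0 passed at either threshold, with Slc25a4 at 0.06 and Slc25a31 at -0.07.

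The 17 measured nuclear regulators of respiratory genes had a median of -0.03, with 7 above 0. By limma 0 passed the adjusted threshold and 1 (5.88%) an unadjusted p of 0.05, which 15.0% of all genes passed. That gene was Tfb1m, which methylates the small ribosomal RNA of mitochondria, at 0.24 ± 0.05 (SE, adjusted p = 0.0571). Esrrb, an orphan nuclear receptor, had 0.08 and Ppargc1a, a coactivator of mitochondrial biogenesis, -0.06. Of the genes of mitochondrial DNA only 2 had a probe set with a single symbol: ND3 had 0.01 ± 0.03 (SE) and COX2 -0.01 ± 0.03 (SE), and neither passed at either threshold.

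Among other cell types, oligodendrocyte markers were above 0 for 11 of 11 measured genes, with a median of 0.14 and a mean log2 signal of 10.73 to 10.88 in the controls and 10.87 to 11.04 in Dp1Rhr. By limma 0 of these passed at the adjusted threshold and 7 (63.6%) at an unadjusted p of 0.05, which 15.0% of all genes passed. The 10 astrocyte markers had a median of 0.04 and ran from -0.15 for Gja1 to 0.30 for S100b. Of these 0 passed the adjusted threshold and 5 (50%) an unadjusted p of 0.05, in both directions. For 9 microglial markers the median was 0.08, with 0 and 3 (33.3%) past these thresholds, and for 7 endothelial markers 0.07, with 0 and 1 (14.3%). Of the red blood cell list 2 genes were measured: Alas2, which starts haem synthesis in erythroid cells, rose by 0.67 ± 0.11 (SE, adjusted p = 0.0304), and Slc4a1 had 0.01 ± 0.04 (SE). The part of these cells in the member values was not tested.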

How the data were processed

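Hippocampal RNA of 5 Dp1Rhr and 5 control mice was labelled with biotin and read on the Affymetrix Mouse Gene 1.0 ST platform. The authors deposited log2 signals per probe set, background-corrected and quantile-normalized by RMA (the submitters' notes name RMA, limma and build mm10), and these log2 values were used as deposited. The number of arrays, and no read depth, limits the precision. Of 35556 probe sets, 21789 carried 1 symbol in the platform annotation, 1621 several and 12146 were not listed. The brightest probe set of each gene was kept, which left 19938 genes. Coordinates and promoter windows are those of RefSeq, GRCm38.p6, and 21698 probe sets matched it.

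Groups were compared with lmFit and eBayes of limma 3.58.1 in R 4.3.3, two-sided, with Benjamini-Hochberg adjustment over all genes and a threshold of 0.05. The fit was tested on simulated data. FCROS, the rank method of the study, was an alternative, with f under 0.025 or over 0.975. The methods of the study and the labels differ on the C57BL/6 substrain. Every member was accounted for. Named with values were members past the threshold, the 4 with the smallest p and the 2 lowest fold changes per complex, those on chromosome 16, the tissue isoforms with counterparts, and 2 genes per pathway list. The members and lists were chosen with earlier results of these data known. The z-scored mean of choroid plexus markers gave the choroid plexus score.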

Additional observations from a re-analysis of the deposited data

Results flagged for a closer look

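In 5 of 104 groups of 5 arrays (52 members, 2 groups each) 1 array lay far from the other 4, with a gap over 0.71 of the range of the group. Chance flags about 1 in 20 such groups. Control replicate 1 had a log2 signal of 11.72 for Atp5c1, against 11.53 to 11.56 in the other controls. Control replicate 2 had 8.66 for Atp5k, against 8.57 to 8.58. Dp1Rhr replicate 3 had 12.90 for Atp5d, against 13.02 to 13.06 in the rest of its group, and 12.04 for Atp5j, against 12.14 to 12.18. Dp1Rhr replicate 5 had 12.03 for Cox6a1, against 11.94 to 11.97.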

How the results depend on the processing

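The count of 1 member past the threshold was 0 with the replicate block (4 of all genes), in each fit that left out 1 array (0 to 0), without control replicates 2 and 3 together, with the choroid plexus score as a covariate, with arrays centred on their medians and with every probe set on its own. It was 1 in the other 5 limma settings. FCROS, which calls near-fixed tails of the rank distribution, called 3 of 52 members (Sdhc, Cox7a1 and Cox8b) and 1075 of 19938 genes. The replicate numbers did not pair the animals: the correlations of same-numbered deviations ran from -0.34 to 0.12.

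The member median of 0.04 ran from 0.03 to 0.05 with 1 array left out, and with 36 to 45 members above 0. It was 0.03 with the choroid plexus covariate (36 above 0), 0.02 above the median of all genes against 0.04 in the report, and 0.016 with centred arrays (33 above 0), which moved the median of all genes to -0.02, so that the members lay 0.04 above it as before. Centring also took the common subunits of complex IV to -0.0157. The tissue isoforms had 0.14 with dim genes (below the 40th percentile of signal) left out, which kept 49 members, and the assembly factors of complex II had 0.063 with the choroid plexus covariate. The causes were not tested. Across the settings 19 of 52 members changed sign at least once, 0 of them with an unadjusted p under 0.05 in the report. With 5 arrays a group the median half-width of 0.09 limits what could be detected.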
